A study of Homo sapiens with 47 samples.

Results

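The 7 genes described here, BCR, ABL1, CRKL, GRB2, GAB2, STAT5A and STAT5B, encode the partners of the BCR-ABL1 fusion and the proteins that carry its signal. They were taken by symbol, a rule that uses no measured value, from the 57507 gene rows of the expression table, and each symbol had 1 row. The symbols themselves were chosen with earlier results of these data known. The study introduced mutations into NUP58, a gene for a component of the nuclear pore, and measured RNA by sequencing as gene totals in FPKM, which scales fragments to transcript length and to the fragments mapped in each library. HAP1 is a near-haploid human line derived from a chronic myeloid leukemia, and HCT116 is a near-diploid human colorectal carcinoma line. The 32 HAP1 libraries comprise 4 each of wild type (WT), of cells given Cas9 without a guide RNA (EV) and of the NUP58-mutated clones C1 to C6. Each HAP1 clone grew from a single cell, so a difference from WT cannot be told apart from other differences of that cell. The study's legends mostly call the replicates biological or independent, but the legend of the HCT116 NUP58 RNA levels calls its points technical replicates. The labels do not say whether the replicates came from separate cultures, and p-values measure the spread between these libraries. The 15 HCT116 libraries comprise 4 labelled as a NUP58-mutated clone and 11 unedited controls, titled WT, EV1 or EV2, of which 2 have a title and a genotype label that differ. That clone, the only one in HCT116, was also derived from a single cell. Its differences from the controls cannot be told apart from other differences of that cell.

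BCR-ABL1 arises from a translocation that joins the start of BCR to the kinase part of ABL1, and the fused tyrosine kinase is constantly active. Phosphorylated fusion protein recruits GRB2, an adaptor that brings the docking protein GAB2 and the RAS activator SOS, while CRKL is an adaptor that the kinase phosphorylates strongly in chronic myeloid leukemia cells. From there the signal runs through RAS and ERK, through PI3K and AKT, and through STAT5A and STAT5B, latent transcription factors that enter the nucleus once phosphorylated. HAP1 cells are known to carry the fusion and HCT116 cells to lack it. Gene totals do not separate fused from unfused BCR or ABL1 transcripts, and neither phosphorylation nor kinase activity was measured.

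In GENCODE annotation of GRCh38, BCR lies on the plus strand at chr22:23179704-23318037 and CRKL, also on the plus strand, at chr22:20917407-20953747, 2.23 Mb before it. ABL1 is on the plus strand at chr9:130713043-130887675, GRB2 on the minus strand at chr17:75318076-75405709 and GAB2 on the minus strand at chr11:78215293-78418348. STAT5A, on the plus strand at chr17:42287547-42311943, and STAT5B, on the minus strand at chr17:42199176-42288633, share 1087 bases at their starts and are close paralogs, so reads of one could have been assigned to the other. BCR has 9 named pseudogenes, which could likewise share reads with it.

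Promoter sequences from RefSeq (GRCh38.p14) were found for all 7 genes, in 10 entries. The letters TTCNNNGAA, the core of the sites that STAT5 dimers bind, occurred in none of the 10 upstream windows of 250 bases, against 6.57% of all 35116 promoters. Of 15 entries for 10 STAT5 target genes, 2 held these letters, those of CISH and BCL6. Entries this few support no difference from all promoters, for members or targets. CISH, an inhibitor that STAT5 itself induces, was picked because it held 4 matches. They are capitalised in these stretches of the minus strand at chr3:50611994-50612017 and chr3:50611875-50611907. The first stretch also lies in a MAPKAPK3 exon.

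CISH, first stretch: ttTTCCTGGAAagTTCTTGGAAat

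CISH, second stretch: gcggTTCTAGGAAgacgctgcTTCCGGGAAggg

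The upstream bases of GAB2 and STAT5B are shown because these genes differed most between the cell lines among the 6 members tested with limma and moved together across HAP1 libraries, and those of CRKL because it was the only member called in the clones. Capitals mark GGGCGG on either strand, the GC box bound by SP1, which 42.6% of all promoters held. GAB2 had 4 matches, 2 of them overlapping, within chr11:78417823-78417970 (minus strand). STAT5B had 1 within chr17:42276414-42276541 (minus strand), and CRKL had none within chr22:20917257-20917406 (plus strand). Such matches describe letters only. The RefSeq start sites used for GAB2 and STAT5B lie inside the GENCODE spans of these genes, in which other transcripts begin further upstream.

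GAB2: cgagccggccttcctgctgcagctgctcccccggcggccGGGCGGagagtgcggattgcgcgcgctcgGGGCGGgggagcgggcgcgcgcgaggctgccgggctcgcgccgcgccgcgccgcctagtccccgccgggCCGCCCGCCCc

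STAT5B: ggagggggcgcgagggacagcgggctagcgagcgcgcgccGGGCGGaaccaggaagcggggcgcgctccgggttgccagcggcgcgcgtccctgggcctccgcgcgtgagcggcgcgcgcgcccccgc

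CRKL: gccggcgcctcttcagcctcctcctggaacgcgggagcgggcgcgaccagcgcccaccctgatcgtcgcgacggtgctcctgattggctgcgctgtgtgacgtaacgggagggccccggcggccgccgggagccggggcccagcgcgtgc

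FPKM summed to 604053 to 654081 in the HAP1 libraries and to 619798 to 721992 in the HCT116 libraries, with depth relative to the first HAP1 WT library of 0.75 to 1.16 and 0.76 to 0.98. NUP58, the targeted gene, was lower in all 24 HAP1 clone libraries (7.98 to 28.0 FPKM) than in the 8 unedited ones (34.3 to 50.4 FPKM). In HCT116, NUP58 goes against 2 labels: it was at 44.7 FPKM in the library labelled clone replicate 3, as in most controls, and at 23.95 FPKM in the library labelled EV2 replicate 3, as in the remaining clone libraries. Results that rest on the HCT116 clone are therefore also given without libraries numbered 3. HAP1 lacked defining blood cell transcripts: PTPRC and SPI1 were listed at 0 in every HAP1 library, and 11 of 18 haematopoietic markers averaged under 0.1 FPKM, while CORO1A, TAL1 and MYB averaged 9.88, 9.68 and 9.14 FPKM in unedited cells. Summed over the list, haematopoietic markers gave 15.1 to 43.9 FPKM in HAP1 and 12.8 to 23.9 in HCT116. HCT116 expressed its epithelial markers, with EPCAM at 184 FPKM, KRT8 at 710 and CDH1 at 14.5 in unedited cells, and the colon list summed to 1615 to 2921 FPKM there against 29.1 to 79.5 in HAP1.

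Unedited HAP1 and HCT116 cells differed in most of the 7 genes. The docking protein gene GAB2 and both STAT5 genes were higher in HAP1, whereas BCR, ABL1 and GRB2 were lower, and CRKL was not called. Tested with limma on log2(FPKM + 1), 5 of the 6 members with a mean of at least 1 FPKM passed an adjusted p of 0.05, 2 of them higher and 3 lower in HAP1. The share called was near that of the whole table, in which 68% of the 13538 genes tested were called, 39.5% as higher and 28.5% as lower in HAP1. Fold changes on this scale understate those of genes with low FPKM, and the median of all genes was 0.10, which fell to 0.00 under median-ratio scaling.

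**Figure D1:**
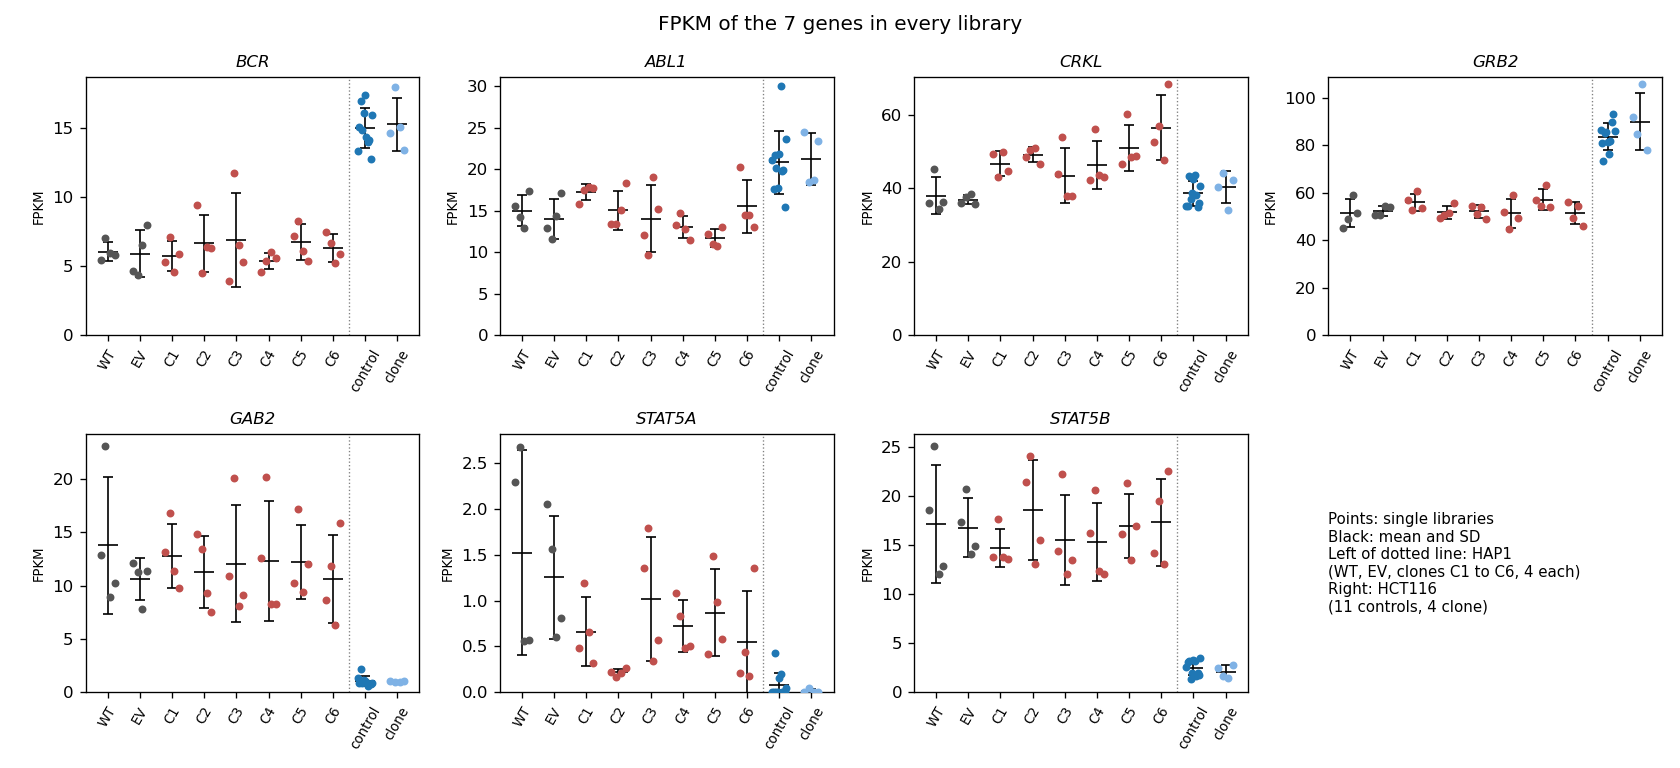
FPKM of BCR, ABL1, CRKL, GRB2, GAB2, STAT5A and STAT5B (vertical axes) in each of the 47 libraries, grouped by line (horizontal axes), with the mean and SD in black. GAB2 and STAT5B lay above every HCT116 library in all HAP1 lines, BCR and GRB2 below, and CRKL was higher in the clones (48.8 FPKM on average) than in unedited HAP1 cells (37.4).

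BCR encodes a GTPase regulator and gives the fusion its promoter. The 4 HAP1 WT libraries had 5.48, 7.03, 5.92 and 5.84 FPKM of BCR, and the 4 EV libraries 4.64, 4.39, 6.56 and 7.998 FPKM. The 11 unedited HCT116 libraries ranged from 12.8 to 17.4 FPKM with a median of 14.9. The ranges did not overlap, and every HCT116 library was above every unedited HAP1 library. Mean BCR was 5.98 ± 1.20 FPKM (SD, n = 8) in HAP1 and 15.02 ± 1.47 (SD, n = 11) in HCT116, a level 2.51-fold higher in HCT116. The log2 fold change was -1.21 (SE 0.0929, adjusted p = 1.11e-10).

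ABL1 encodes the tyrosine kinase itself. WT libraries had 15.5, 14.2, 12.95 and 17.3 FPKM of ABL1, EV libraries had 12.9, 11.6, 14.4 and 17.1, and the HCT116 controls ranged from 15.4 to 30.1 FPKM with a median of 20.2. The groups overlapped, with some HAP1 libraries above the lowest HCT116 control. The means were 14.5 ± 2.05 FPKM (SD, n = 8) and 20.8 ± 3.83 (SD, n = 11), and the log2 fold change was -0.48 (SE 0.103, adjusted p = 0.000264). Restricting the comparison to HAP1 WT and the HCT116 libraries labelled WT in both title and genotype kept the direction but ended the call (-0.44, adjusted p = 0.0683).

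In every unedited library BCR was less abundant than ABL1, and on average more so in HAP1. The ratio of BCR to ABL1 FPKM averaged 0.413 ± 0.0618 (SD, n = 8) in unedited HAP1 and 0.739 ± 0.119 (SD, n = 11) in HCT116. The lowest and highest ratios were 0.337 and 0.494 in HAP1 and 0.479 and 0.910 in HCT116, a slight overlap. An exact two-sided permutation test of the log2 ratio gave a difference of -0.84 (p = 5.29e-05, adjusted p = 0.000476 over 9 tests). Without HCT116 libraries numbered 3 the lowest control ratio was 0.635 and the ranges no longer overlapped (difference -0.91, exact p = 8.23e-05). The control with the ratio of 0.479 was EV1 replicate 3, whose NUP58 level of 46.5 FPKM does not go against its label.

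The adaptor genes were the most abundant members on the FPKM scale. GRB2, which links phosphotyrosines to SOS, had 45.4 to 59.2 FPKM in the 8 unedited HAP1 libraries (median 51.1) and 73.6 to 93.2 in the HCT116 controls (median 85.0), with no overlap. Its log2 fold change was -0.68 (SE 0.059, adjusted p = 8.81e-10). CRKL had 34.2 to 45.3 FPKM in HAP1 (median 36.1) and 34.8 to 43.6 in HCT116 (median 38.3), and these ranges coincided almost entirely. The log2 fold change of CRKL was -0.05 (95% confidence interval -0.18 to 0.09, adjusted p = 0.552). Median-ratio scaling moved it to -0.16 and past the threshold (adjusted p = 0.0324).

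GAB2, the scaffold that GRB2 brings to the fusion and that recruits PI3K and SHP2, differed most among the 6 members tested with limma. WT libraries had 12.9, 23.1, 8.92 and 10.2 FPKM of GAB2 and EV libraries 12.1, 11.3, 7.77 and 11.4, against 0.599 to 2.22 FPKM (median 0.882) in the HCT116 controls. Every HAP1 library was above every HCT116 library. Mean GAB2 was 11.8-fold higher in HAP1 (12.2 ± 4.70 FPKM, SD, n = 8, against 1.03 ± 0.446, SD, n = 11), with a log2 fold change of 2.66 (SE 0.157, adjusted p = 1e-12). Its paralog GAB1 was also higher in HAP1 (log2 fold change 1.13, SE 0.136, adjusted p = 1.74e-07).

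STAT5B was higher in HAP1 as well. WT libraries had 18.6, 25.1, 12.1 and 12.9 FPKM of STAT5B, EV libraries 17.4, 20.8, 14.1 and 14.96, and the HCT116 controls 1.34 to 3.50 (median 2.52). The groups were far apart, at 17.0 ± 4.42 FPKM (SD, n = 8) against 2.50 ± 0.768 (SD, n = 11), a 6.80-fold higher mean in HAP1. The log2 fold change was 2.36 (SE 0.149, adjusted p = 3.58e-12). All 5 calls, for BCR, ABL1, GRB2, GAB2 and STAT5B, were also made without HCT116 libraries numbered 3.

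STAT5A was the least abundant member and fell under the mean of 1 FPKM needed for the limma fit. WT libraries had 2.29, 2.68, 0.562 and 0.565 FPKM of STAT5A and EV libraries 2.05, 1.56, 0.600 and 0.809. It was listed at 0 in 7 of the 11 HCT116 controls and reached 0.427 FPKM in the highest. Every HAP1 unedited library was above every HCT116 control, and an exact two-sided permutation test gave p = 2.65e-05, the smallest it can give (adjusted p = 0.000238 over 9 comparisons). Because of the shared bases and the zeros, the level of STAT5A relative to STAT5B is uncertain. In these bulk libraries a lower level per cell and fewer expressing cells cannot be told apart.

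**Figure D2:**
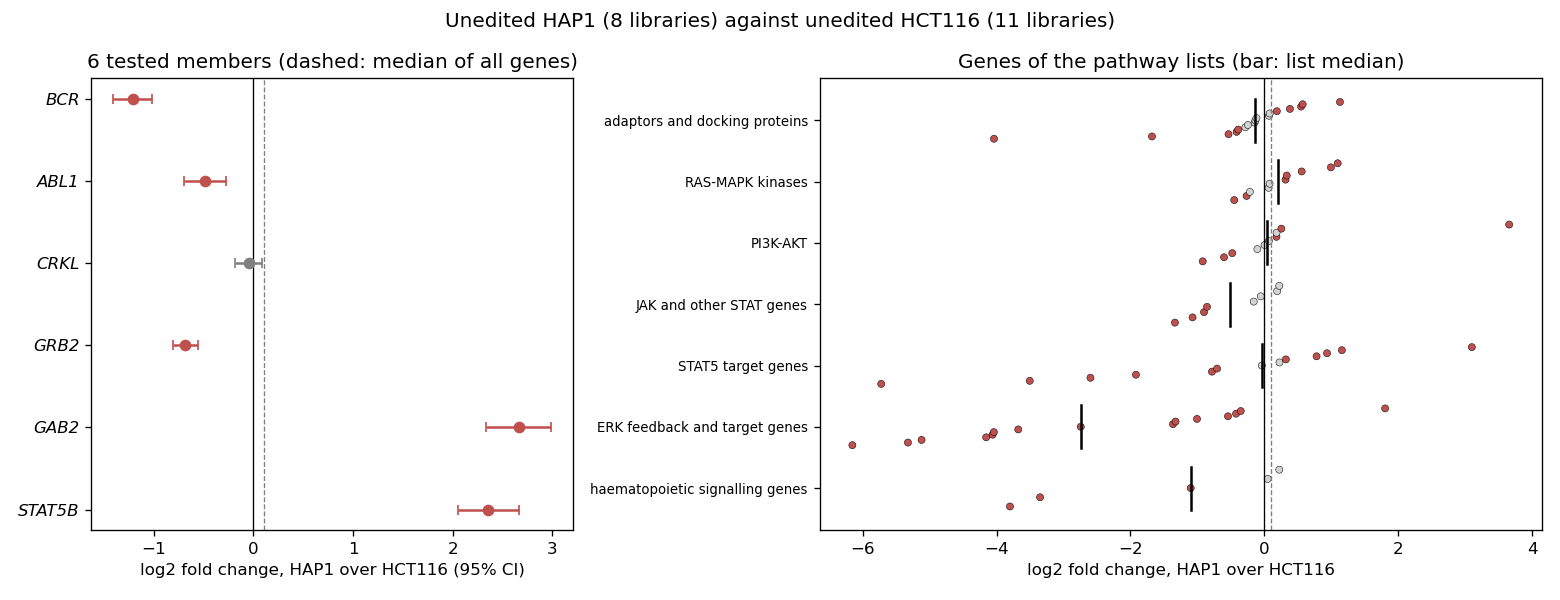
Log2 fold change of unedited HAP1 (8 libraries) over unedited HCT116 (11 libraries) for the 6 tested members with 95% confidence intervals (left) and for single genes of the pathway lists with list medians as bars (right). Red marks an adjusted p under 0.05, and the dashed line the median of all genes (0.10). GAB2 (2.66) and STAT5B (2.36) lie far to the right, and the ERK feedback and target genes have a median of -2.74.

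The genes around the members were examined in lists of pathway members. Each count is to be read beside the shares over all genes tested, 39.5% called as higher and 28.5% as lower in HAP1. Among 17 adaptors and docking proteins, 5 were higher and 5 lower in HAP1, with a median log2 fold change of -0.13. RIN1, a RAS effector that activates ABL kinases, was lower (-4.04, SE 0.141, adjusted p = 6.55e-17), as was the adaptor SHC1 (-1.68, SE 0.129, adjusted p = 1.13e-10), while SOS1, the RAS activator carried by GRB2, was higher (0.57, SE 0.147, adjusted p = 0.00162). Of 10 RAS and MAPK kinase genes 5 were higher and 2 lower (median 0.20). ARAF (1.10) and MAP2K1 (1.00) were higher and BRAF (-0.45) lower on the log2 scale, with adjusted p-values of 2.72e-11, 8.05e-12 and 3.7e-05.

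Of 10 PI3K and AKT genes 3 were higher and 3 lower, with a median log2 fold change of 0.04. The shares over all genes were 39.5% higher and 28.5% lower. PIK3CB, a catalytic PI3K subunit (-0.92), and the MTOR partners RPTOR (-0.60) and RICTOR (-0.48) were lower in HAP1. None of 8 tested JAK and other STAT genes was higher and 4 were lower, among them JAK1 (-1.07) and STAT6 (-0.86). JAK3, at 0.0430 FPKM in unedited HAP1, was tested only through its 1.72 FPKM in HCT116. Of 13 haematopoietic signalling genes 5 were abundant enough to test and 3 were lower in HAP1, namely PTPN6, a phosphatase (-3.80), VAV1, a RAC exchange factor (-3.35), and the kinase gene FES (-1.10). VAV1 averaged 0.0401 FPKM and PTPN6 0.473 FPKM in unedited HAP1, against 10.04 and 19.2 in HCT116. These genes, like SPRY4, DUSP4, DUSP6 and RIN1, thus reached the mean of 1 FPKM only through HCT116. Counts of lower genes among such genes therefore describe the lists and support no direction.

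Genes known as STAT5 targets went in both directions, 5 higher and 6 lower of 13 tested (median -0.04), beside 39.5% and 28.5% of all genes. SOCS2, a feedback inhibitor of cytokine signalling, was higher in HAP1, at 83.1 ± 12.2 FPKM (SD, n = 8) against 8.97 ± 2.49 (SD, n = 11), a log2 fold change of 3.10 (SE 0.130, adjusted p = 1.88e-15). CCND1, the cyclin D1 gene, was lower, at 1.95 ± 0.889 FPKM against 151 ± 23.8 (log2 fold change -5.72, SE 0.134, adjusted p = 5.46e-20). ID1 (-3.50) and SOCS3 (-2.60) were lower too. The call of SOCS1, a related inhibitor named after its value was seen, was lost without any one of 9 of the 19 libraries (adjusted p of up to 0.0895). CISH, named here for its promoter, had 3.20 ± 0.715 FPKM in HAP1 and 2.35 ± 0.47 in HCT116 (log2 fold change 0.32, adjusted p = 0.0112, not called under median-ratio scaling with adjusted p = 0.0513).

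The ERK feedback and target genes were nearly all lower in HAP1: 14 of 15 fell and 1 rose. The median log2 fold change was -2.74. Of all genes tested, 28.5% were called as lower and 39.5% as higher in HAP1. The list holds genes tested only through HCT116, DUSP6 among them, so its count supports no direction. DUSP6, a phosphatase that ERK induces and that switches ERK off, averaged 0.882 ± 0.693 FPKM (SD, n = 8) in HAP1 and 139 ± 69.4 (SD, n = 11) in HCT116 (log2 fold change -6.15, SE 0.235, adjusted p = 3.4e-16). SPRY1, with the highest adjusted p of the 14 (0.0429), missed the threshold without any one of 11 libraries, and was named after its value was seen. PHLDA1 (-5.32), the RAS pathway inhibitor SPRY4 (-5.12) and the phosphatase gene DUSP4 (-4.15) followed. The exception was EPHA4, a receptor tyrosine kinase gene, named after its value was seen (1.81, SE 0.155, adjusted p = 7.29e-10). The 11 tested colon epithelial markers were all lower in HAP1 in the same comparison, and of 4 tested haematopoietic markers 3 were higher and 1 lower. In unedited cells 6 of 16 colon markers averaged at least 1 FPKM in HAP1, against 11 in HCT116. Some colon markers were thus tested only through HCT116, and their count supports no direction. How far cell type contributes to the difference in ERK targets was not tested.

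Genes near the members on the chromosome went in both directions between the cell lines. The shares called over all genes tested were 39.5% as higher and 28.5% as lower in HAP1. Within 1 Mb, the 21 tested neighbours of BCR had a median log2 fold change of -0.03, with 5 higher and 7 lower in HAP1, and the 21 neighbours of ABL1 had a median of 0.14, with 9 higher and 6 lower. Those of CRKL (32 genes) had a median of 0.12 and those of both STAT5 genes (50 genes) 0.03. The neighbours of GRB2 were mostly lower, as GRB2 itself was, with 34 lower and 6 higher of 52 (median -0.47), and those of GAB2 mostly higher, with 8 higher and 2 lower of 14 (median 0.34). Gene dosage at these loci was not measured.

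Across the 8 HAP1 lines CRKL was the only member called. The F test over all lines called 21.5% of 13180 genes, and of the 6 members tested it called CRKL alone (F = 5.94, adjusted p = 0.00284). ABL1 had F = 2.08 (adjusted p = 0.211) and the other members between 0.27 for GAB2 and 0.94 for GRB2. The highest BCR library of any HAP1 line, at 11.8 FPKM, was C3 replicate 2, where the other C3 libraries had 3.96 to 6.51 FPKM. Line means of BCR ran from 5.39 FPKM in C4 to 6.90 in C3, those of ABL1 from 11.7 in C5 to 17.2 in C1, and those of GRB2 from 51.3 in C4 to 57.1 in C5. For these genes the ranges of lines next to each other in the order overlapped.

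CRKL had 36.0, 45.3, 34.2 and 36.2 FPKM in the WT libraries and 36.0, 37.7, 38.3 and 35.6 in EV. Clone C6 had 52.7, 56.9, 47.8 and 68.4 FPKM, C5 had 46.5, 60.3, 48.3 and 48.8, and C2 had 48.5, 50.4, 51.0 and 46.5. Each library of these 3 clones was above each unedited library. C1 had 49.2, 42.9, 49.7 and 44.6 FPKM, C4 had 42.3, 56.0, 43.7 and 43.0, and C3 had 43.98, 53.8, 37.8 and 37.99. The libraries of C1, C3 and C4 overlapped those of WT through the highest WT library. Of 24 clone libraries, 23 were above the WT mean and 16 above all 8 unedited libraries.

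Averaged over the 6 clones, CRKL was 28.6% above WT in mean FPKM, with a log2 fold change of 0.35 (SE 0.0895, 95% confidence interval 0.17 to 0.53, adjusted p = 0.0145). In that comparison 6.6% of 13180 genes were called, 3.17% as higher and 3.43% as lower. The other 5 tested members were not called, with log2 fold changes of 0.02 for BCR (interval -0.32 to 0.35), -0.07 for ABL1 (-0.31 to 0.17), 0.06 for GRB2 (-0.08 to 0.20), -0.17 for GAB2 (-0.65 to 0.31) and -0.04 for STAT5B (-0.39 to 0.32). The CRKL call depended on the 4 WT libraries. Without WT replicate 1, 3 or 4 in turn it missed the threshold, with an adjusted p of up to 0.0869 and log2 fold changes that stayed between 0.31 and 0.44 over all 32 libraries left out in turn. With EV in place of WT as the control it was 0.38 (adjusted p = 0.00668).

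**Figure D3:**
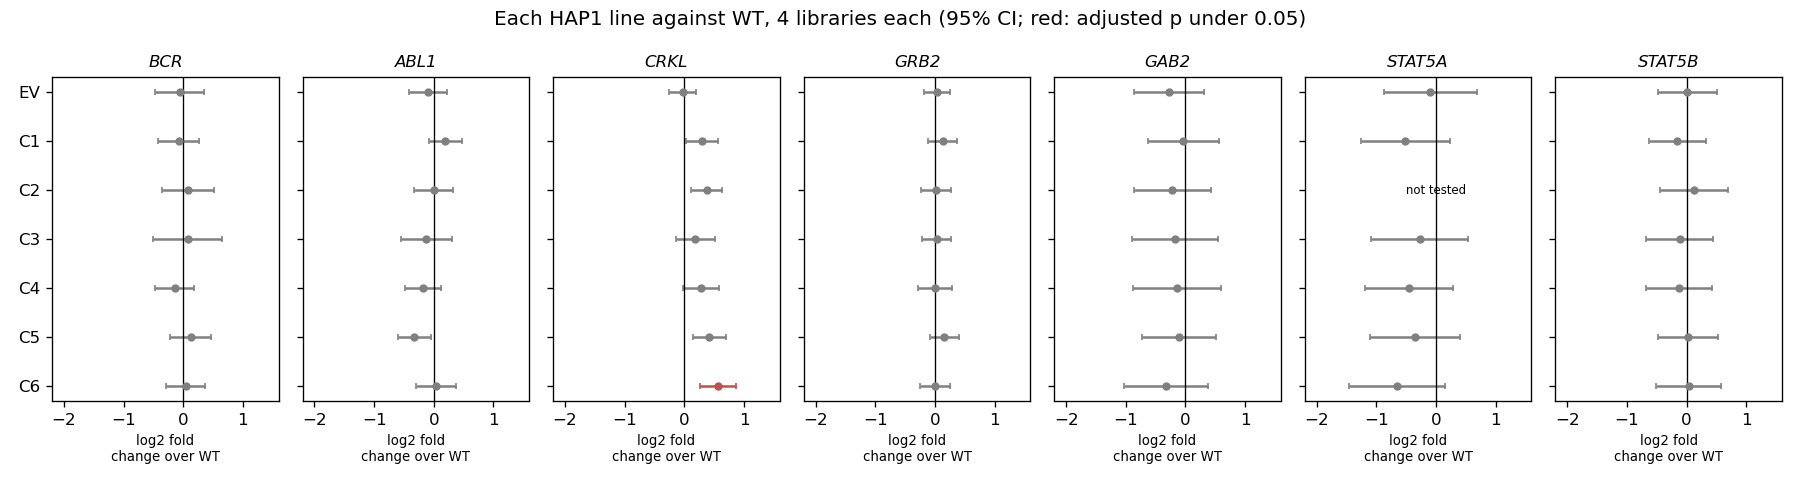
Log2 fold change over WT (horizontal axes, 4 libraries against 4) of each member (panels) in EV and clones C1 to C6 (vertical axis), with 95% confidence intervals. CRKL lies right of 0 in all 6 clones, from 0.18 in C3 to 0.56 in C6, the single red point with an adjusted p under 0.05, and GAB2 lies left of 0 in every line and STAT5A in every line fitted, none of these called. All lines share the same 4 WT libraries, so their signs are not independent. With EV as the control, GAB2 in the mean of the clones was 0.104.

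Clone by clone, the 1 call for a member was CRKL in C6 (0.56, SE 0.135, adjusted p = 0.0255), where 11.7% of all genes tested were called. In C5, with 7.55% of genes called, CRKL had a log2 fold change of 0.42 (adjusted p = 0.0754). The values were 0.37 in C2 (adjusted p = 0.214), 0.30 in C1 (0.359), 0.28 in C4 (0.804) and 0.18 in C3 (1), where 0.732%, 0.479%, 0.16% and 0.0911% of genes were called. EV, with 0.038% called, had -0.03. The call in C6 was lost when any of 6 of the 8 libraries, WT replicates 1, 3 and 4 and C6 replicates 1, 2 and 4, was left out (adjusted p of up to 0.0774). Blocking on the replicate number, which pairs libraries of EV and of C1 to C4 with WT, gave no member a call in these lines. It raised the genes called in C1 to C4 to 197, 161, 82 and 319, from 63, 96, 12 and 21.

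The 32 tested genes within 1 Mb of CRKL had a median log2 fold change of -0.13 in the mean of the clones, with 1 higher and 1 lower, and the 33 tested in C6 had a median of -0.15. Over all genes, 3.17% were called as higher and 3.43% as lower in the mean of the clones. The 3 genes whose log2 levels followed CRKL most closely over the 32 HAP1 libraries were POU3F3 (Pearson r = 0.914), ARHGEF12 (0.912) and VCPIP1 (0.908). These libraries share their lines and replicate numbers, so the coefficients describe them and carry no test.

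STAT5A was low in the clones, with wide spread. C2 had 0.224, 0.167, 0.208 and 0.265 FPKM, and every C2 library was below every WT library. An exact two-sided permutation test of C2 against WT gave p = 0.0286, the smallest that 4 against 4 libraries allow, and an adjusted p of 0.129 over 9 comparisons. Over all clones 13 of 24 libraries were below every WT library. Within WT, replicates 1 and 2 had 2.29 and 2.68 FPKM, and replicates 3 and 4 had 0.562 and 0.565. EV split by replicate number in the same way, at 2.05 and 1.56 against 0.600 and 0.809 FPKM. The permutation tests did not pair libraries by number. None of the 6 lines in which STAT5A could be fitted by limma was called. The ratio of STAT5A to STAT5B averaged 0.0800 ± 0.0409 (SD, n = 4) in WT and 0.0126 ± 0.0047 (SD, n = 4) in C2 (exact permutation p = 0.0286, adjusted p = 0.2 over 7 tests). The ratio of BCR to ABL1 was 0.410 ± 0.0773 (SD, n = 4) in WT and lay between 0.333 and 0.582 in the other HAP1 lines on average, and no line passed (lowest adjusted p 0.386, exact permutation test). In C3 replicate 2 alone the ratio was 1.22, with BCR at 11.8 FPKM above ABL1 at 9.70, and the lowest C3 ratio was 0.328.

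GAB2 and STAT5B followed the replicate number of the HAP1 libraries. Their line means differed by at most 1.30-fold and 1.26-fold, while the coefficient of variation within a line was 34.5% and 26.0% (median of 8 lines). Replicate 2 was the highest library of its line for STAT5B in 7 of 8 lines and for GAB2 in 5 of 8, and replicate 3 was the lowest in 6 of 8 for each. STAT5B averaged 21.4 ± 2.42 FPKM (SD over 8 lines) in replicates numbered 2 and 13.02 ± 0.775 in those numbered 3, and GAB2 16.7 ± 4.28 and 8.69 ± 1.46. GRB2 went the other way, highest in replicate 3 in 5 of 8 lines. CRKL was highest in replicate 2 in 4 of 8 lines, and after removing line means it had r = 0.781 with GAB2 and 0.699 with STAT5B, while STAT5A had 0.738 and 0.744. When limma also fitted a term for the replicate number, CRKL in the mean of the clones stayed at 0.35 on the log2 scale (adjusted p = 0.00356). That number is not taken to pair C5 and C6 with WT, and the cause of the pattern was not tested. What a replicate number stands for is not given in the labels. Over the 32 libraries, GAB2 and STAT5B had Pearson r = 0.820 (Spearman rho 0.813), and 0.927 after removing line means, whereas GRB2 and STAT5B had r = -0.572 and BCR and ABL1 r = -0.067. Most like GAB2 were HECA (0.931), DOCK6 (0.928) and ACADS (0.918), and most like STAT5B were PPP1R16B (0.915), TRAF5 (0.899) and DHPS (0.896).

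**Figure D4:**
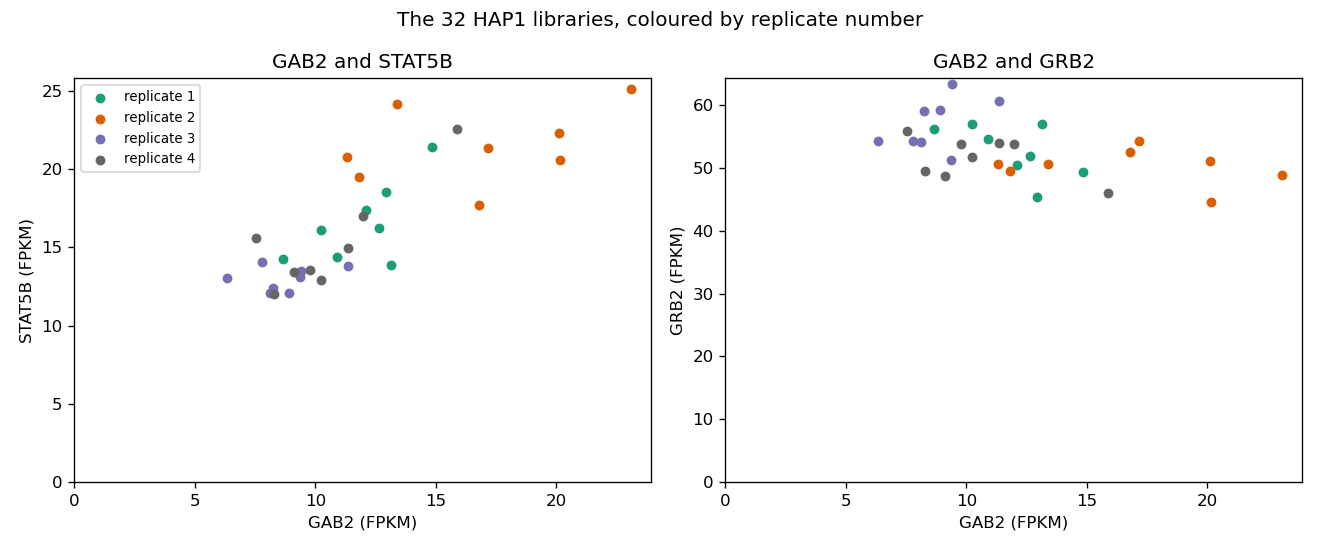
FPKM of STAT5B (left) and GRB2 (right) against FPKM of GAB2 in the 32 HAP1 libraries, coloured by replicate number. Libraries numbered 2 (orange) lie mostly at the upper right of the GAB2 and STAT5B plot and those numbered 3 (purple) mostly at the lower left, with r = 0.820 over all, and GRB2 runs the opposite way.

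For the other members the most similar genes over the same libraries were DHX30 (0.860), DCLRE1B (0.776) and BCS1L (0.769) for GRB2, P3H4 (0.693), NFRKB (0.676) and NKX2-3 (0.673) for BCR, and RP11-613M10.8 (0.666), MSRA (0.660) and CCDC117 (0.655) for ABL1. For STAT5A, at its low levels, they were TRPV4 (0.806), RASAL1 (0.784) and F11R (0.783).

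Downstream of the members, most pathway genes were not called in the mean of the clones, where 6.6% of all genes tested were called. CRK, the paralog of CRKL, rose by 0.27 on the log2 scale (SE 0.0659, adjusted p = 0.0112), the 1 gene called among 16 tested adaptors and docking proteins. AKT1 changed by -0.28 (SE 0.0731, adjusted p = 0.0176), the 1 called among 10 PI3K and AKT genes. Of 7 tested JAK and other STAT genes TYK2 (-0.42, adjusted p = 0.00844) and STAT2 (-0.46, adjusted p = 0.0331) were lower. CRK and AKT1 missed the threshold with EV as the control (adjusted p = 0.0951 and 0.0769), and each of CRK, AKT1, TYK2 and STAT2 missed it without at least 1 WT library, at adjusted p-values of up to 0.0991, 0.0806, 0.0788 and 0.17.

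The STAT5 target list gave 2 higher and 2 lower of 14 tested, with a median log2 fold change of -0.17 against -0.02 over all genes. Of all genes tested, 3.17% were called as higher and 3.43% as lower. SOCS2 had 79.9, 76.99, 81.45 and 97.3 FPKM in WT and 17.1, 22.2, 18.8 and 16.9 in C6, so that all C6 libraries were below all WT libraries. Line means were 36.4 ± 5.95 in C2, 53.5 ± 5.71 in C5, 57.0 ± 15.4 in C1, 71.8 ± 13.9 in C4 and 79.4 ± 11.8 in C3 (SD, n = 4 each), against 82.3 ± 16.2 in EV. The clones together were lower (log2 fold change -0.81, SE 0.131, adjusted p = 0.000155). BCL2L1, a survival gene of the BCL2 family, was lower as well (-0.51, SE 0.0609, adjusted p = 1.99e-06).

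The cyclin genes moved the other way. CCND1 had 1.97, 2.24, 3.90 and 1.35 FPKM in WT and 22.1, 23.6, 22.7 and 22.1 in C6, and every clone library was above every unedited library, the lowest clone library having 4.45 FPKM (in C3). Over all 6 clones CCND1 was higher by 1.76 on the log2 scale (SE 0.130, adjusted p = 3.46e-10), and CCND2, the cyclin D2 gene, by 1.26 (SE 0.255, adjusted p = 0.00219). The direction of change was therefore not the same for all called STAT5 targets, the member STAT5B was not called and STAT5A was too low for this fit. Of 12 tested ERK feedback and target genes EPHA4 was called (0.62, SE 0.162, adjusted p = 0.0168), with a list median of -0.05, where 6.6% of all genes were called. Of 4 tested haematopoietic markers CORO1A was lower (-0.73, adjusted p = 0.0279), and of 6 tested colon markers KRT8 (-1.29), KRT18 (-0.67) and ESRP1 (-0.62) were lower. EPHA4, CORO1A and ESRP1 each missed the threshold without 1 or more WT libraries, at adjusted p-values of up to 0.0786, 0.0978 and 0.22.

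**Figure D5:**
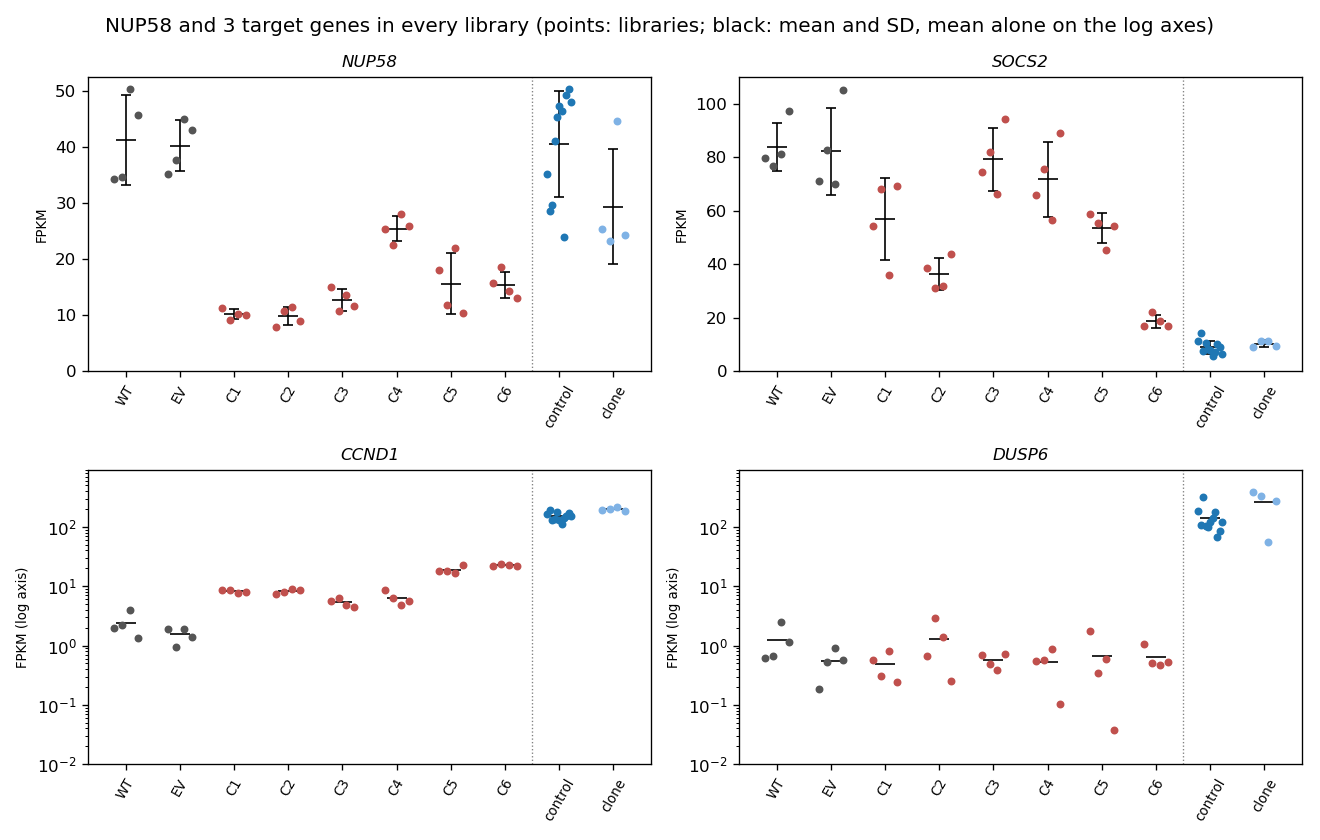
FPKM of NUP58, SOCS2, CCND1 and DUSP6 (vertical axes, log axes for CCND1 and DUSP6) in each of the 47 libraries by line. SOCS2 is lowest among HAP1 lines in C6 (18.7 FPKM on average against 83.9 in WT), CCND1 is higher in every clone, and DUSP6 averages at most 1.29 FPKM in a HAP1 line against 139 in HCT116 controls.

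In HCT116 no member was called between the clone and the controls. BCR had 14.6, 17.98, 15.1 and 13.5 FPKM in the clone libraries, CRKL 40.4, 44.2, 34.1 and 42.3, and GRB2 91.8, 84.6, 106 and 78.0, with the library labelled replicate 3 lowest for CRKL and highest for GRB2. The log2 fold changes of the 6 tested members ran from -0.17 for STAT5B to 0.10 for GRB2. Over all genes limma called 0 of 12960 (0%), with 1342 at an unadjusted p under 0.05, and 17 were called when each gene kept its own variance in each group. Without libraries numbered 3, 5.92% of 13000 genes were called and still no member, with CRKL at 0.15 (SE 0.0953, 95% confidence interval -0.06 to 0.35, adjusted p = 0.36).

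The clone effect on CRKL in HAP1 exceeded that in HCT116 by 0.30 on the log2 scale (SE 0.126, 95% confidence interval 0.04 to 0.55), which did not pass the interaction test over all genes (adjusted p = 0.257, with 1.8% of 13629 genes called). Without HCT116 libraries numbered 3 it was 0.20 (adjusted p = 0.414). For the other tested members the adjusted p-values of this difference were 0.86 or higher, and 0.555 (ABL1) or higher without these libraries. The HCT116 effect rests on a single clone, and the p-values cover the spread between libraries, not between clones. Among the STAT5 targets the effects differed for SOCS2 (-1.02, SE 0.213, adjusted p = 0.00431), CCND1 (1.37, SE 0.180, adjusted p = 4.54e-06) and CCND2 (1.19, SE 0.313, adjusted p = 0.0368). These 3 were also called without libraries numbered 3, at -0.90 for SOCS2, 1.46 for CCND1 and 1.17 for CCND2 (adjusted p = 0.00842, 3.14e-06 and 0.0346). CCND2 averaged 0.0147 FPKM in the HCT116 controls and 0.0739 FPKM in the HCT116 clone, and was tested only through HAP1. Its difference therefore restates the HAP1 effect and does not compare the cell lines. Without HCT116 libraries numbered 3, 6 of 15 ERK feedback and target genes were higher in the HCT116 clone, with SPRY4 at 1.67 (adjusted p = 0.00872), DUSP6 at 1.42 (adjusted p = 0.0284) and DUSP4 at 1.32 (adjusted p = 0.0254). In that fit 5.92% of all genes tested were called. With all libraries none of the 15 was called.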

How the data were processed

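RNA from 32 HAP1 and 15 HCT116 libraries was prepared with an RNeasy and a TruSeq kit. According to the methods and the submitters' processing notes, the authors checked reads with FastQC, trimmed adaptors, aligned to GRCh38 with STAR and deposited FPKM values from RSEM without further normalization, as 1 row per gene. RSEM shares reads among similar genes, so paralogs and pseudogenes can exchange signal. The depth of each library is known only relative to another, from the size of the smallest values. No 2 libraries held identical values (0 pairs).

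Groups were taken from titles and genotype labels. log2(FPKM + 1) was tested with limma 3.58.1 (R 4.3.3, eBayes with trend) on genes with a mean of at least 1 FPKM over the libraries of a fit, and p-values were Benjamini-Hochberg adjusted over all genes tested, with 0.05 as threshold. The line difference used the 8 unedited HAP1 and 11 HCT116 libraries, single clones 4 libraries against 4 WT, and the mean of the clones and the F test all 32. STAT5A and ratios were tested by exact two-sided permutation (scipy 1.17.1). Scripts were tested on simulated data. The replicate number was taken to pair EV and C1 to C4 with WT because in these 5 of 7 lines all 4 same-numbered pairs deviated together (r over 0.1). Over all lines this held for 24 of 28 pairs, with r from -0.365 to 0.742.

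The members and gene lists were chosen with earlier results of these data known. Named were the 7 members, NUP58, up to 4 called genes per list with the largest change, up to 6 abundant markers per marker list besides PTPRC, SPI1, EPCAM and CDH1, and the 3 genes most correlated with each member. CISH, EPHA4, SPRY1 and SOCS1 were otherwise named after their values were seen. Alternatives were the pseudocount, the filter, TPM or median-ratio scaling, EV as control, a replicate block, an unmoderated test, the authors' thresholds and leaving out libraries or clones. GENCODE 44 positions were matched for 56417 genes by identifier, and promoters are from RefSeq. Some called genes of the lists are not reported here.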

Additional observations from a re-analysis of the deposited data

Results flagged for a closer look

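In 6 of 72 groups of member or NUP58 values 1 library lay far from the others by Dixon's test, where chance alone gives about 1 in 20 groups. ABL1 in C1 replicate 1 was 15.8 FPKM, against 17.5 to 17.8 in the other C1 libraries. CRKL was 56.0 FPKM in C4 replicate 2, against 42.3 to 43.7, and 60.3 FPKM in C5 replicate 2, against 46.5 to 48.8. STAT5B in C1 replicate 2 was 17.7 FPKM, against 13.6 to 13.9. STAT5A was 0.0444 FPKM in HCT116 clone replicate 2 and listed at 0 in the other 3 clone libraries, where any value above 0 would have stood out, so that it carries no information. NUP58 was 44.7 FPKM in the library labelled HCT116 clone replicate 3, against 23.3 to 25.3. Of the 6 libraries, 4 carry the number 2.

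By limma's interaction test, 6 pathway or marker genes also called in the HAP1 clones had a different clone effect in HCT116. The HCT116 effect rests on a single clone, and the p-values cover the spread between libraries, not between clones. The differences on the log2 scale were -0.42 for AKT1 (adjusted p = 0.0374), -1.02 for SOCS2, 1.365 for CCND1, 1.185 for CCND2, -1.49 for KRT8 and -0.62 for KRT18. No member was among them. The difference for CCND2, at 0.0147 FPKM in the HCT116 controls and 0.0739 FPKM in the HCT116 clone, restates the HAP1 effect. Without HCT116 libraries numbered 3 all 6 were also called, at -0.39 for AKT1 (adjusted p = 0.0445), -0.90 for SOCS2, 1.46 for CCND1, 1.17 for CCND2, -1.32 for KRT8 and -0.47 for KRT18.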

How the results depend on the processing

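Of 2948 values recomputed without 1 library, 2841 kept their direction and their side of the threshold, as did 1207 of 1281 under other alternatives. Members called: C2 gave 1 in place of 0 with EV as control (CRKL, adjusted p = 0.0478). C5 gave 1 with the replicate block (CRKL, adjusted p = 0.0124), with all 32 HAP1 libraries in 1 fit (0.0169) and with EV as control (0.0156). C6 gave 0 in the unmoderated test (CRKL, adjusted p = 0.0875) and at an unadjusted p under 0.01 with a fold over 2. The block changed the members' call in no other comparison, and in C5 and C6 not every same-numbered pair deviated together, so that the number is not taken to pair them. Without 1 library, members called ran from 0 to 1 for the mean of the clones (0 without WT replicate 1, 3 or 4), for C5 (1 without WT replicate 2) and for C6. The causes were not tested.

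Signs that turned were those of small values. The line difference of CRKL became 0.025 in TPM and 0.061 with only libraries labelled WT. In the mean of the clones BCR became -0.005 without C5, and with EV as control ABL1 became 0.031 and GAB2 0.104. In the HCT116 clone GAB2 became -0.009 without libraries numbered 3 and -0.017 without the controls of conflicting labels. In the difference of clone effects BCR became 0.005 under median-ratio scaling and 0.006 without libraries numbered 3, and GRB2 0.055. Without 1 library, the mean of the clones ran from -0.028 to 0.079 for BCR, -0.332 to 0.095 for GAB2 and -0.174 to 0.158 for STAT5B, and CRKL in EV from -0.076 to 0.055. The HCT116 clone ran from -0.054 to 0.077 for BCR, -0.031 to 0.1 for ABL1 and -0.017 to 0.040 for GAB2. The difference of clone effects ran from -0.061 to 0.070 for BCR, -0.107 to 0.038 for GRB2, -0.347 to 0.080 for GAB2 and -0.004 to 0.328 for STAT5B.

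Counts of all genes called moved with the setting. The mean of the clones called 870 genes, and 1659 with the block or 2310 with WT and EV as control. The F test called 2836, or 4603 with the block. C5 called 994, or 2147 with the block, and C6 1561, or 2702 with EV as control and 679 in the unmoderated test. C1, C2, C3 and C4 called 63, 96, 12 and 21 genes, and 437, 536, 49 and 135 in the fit of all 32 libraries, 208, 247, 27 and 42 with EV as control, and 2, 3, 1 and 2 in the unmoderated test. C5 called 1618, 1891 and 483 under these settings. The interaction called 246, or 909 without libraries numbered 3, and the line difference 9207, or 5666 with only libraries labelled WT.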
